A study of Mus musculus with 12 samples.

Results

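The 9 mouse genes B2m, H2-D1, H2-K1, Tap1, Tap2, Ifit1, Ifit3, Irf7 and Bst2, which belong to major histocompatibility complex (MHC) class I antigen presentation and to the interferon response, were examined in forebrain transcriptomes. They were picked by symbol, with earlier results of these data known, and all 9 were found among the 19268 genes of the deposited table. RNA came from male C57BL/6J mice, whose forebrain was taken without the olfactory bulb on postnatal day 25 (juvenile, P25) or on postnatal day 60 (adult, P60). The knock-out mice (KO) carried, on both alleles, a germline deletion within Shank3, which codes for a postsynaptic scaffold of excitatory synapses, and the others were wild-type (WT). No other allele or treatment was named. Each of 4 groups, P25-WT, P25-KO, P60-WT and P60-KO, had 3 libraries from different mice. Values are normalized counts, in which library size and transcript length differences between libraries had been removed, and they summed to between 30600000 and 32300000 per library. The reads behind each value are unknown. Shank3 itself had 5174 ± 481 normalized counts in P25-KO and 10779 ± 786 in P25-WT (SD, n = 3 each), and 4914 ± 339 in P60-KO and 9796 ± 749 in P60-WT (SD, n = 3 each). KO libraries were thus at 48.0% and 50.2% of WT, a total over the whole gene that separates the labelled genotypes at both ages but does not show whether 1 or both alleles carried the deletion.

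MHC class I molecules carry peptides from inside the cell to its surface, where cytotoxic T cells read them, and in the brain they are also known for roles at synapses. Interferons bind receptors that act through JAK kinases and STAT transcription factors, and many of the antiviral genes they switch on carry the interferon-stimulated response element (ISRE) in their promoters. Class I genes are themselves raised by interferon, and in resting brain most of these genes are expressed at low levels, with microglia and vascular cells among the known sources.

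The promoters are shown first, because a transcription factor motif is what ties many interferon-induced genes together. Promoter windows from RefSeq (GRCm38.p6) were used for 8 of the 9 genes, that of Tap2 was not analysed here, and H2-K1 had more than 1 start, which made 9 windows of 250 bases before the start. The ISRE core was searched as GAAA, any 2 bases, GAAA, on both strands, and the gamma-activated sequence (GAS) as TTC, any 3 bases, GAA, which reads the same on both strands. The ISRE core lay in the windows of 4 genes, B2m, Ifit1, Ifit3 and Bst2, whereas 2.98% of all 32851 promoter windows held it. Its first base was 139 bases before the start in B2m, 104 and 85 in Ifit1, 156 and 122 in Ifit3, and 130 and 124 in Bst2, where the matches overlap each other. The GAS motif was found in Bst2 alone, 136 bases before the start and overlapping an ISRE core, and in 7.02% of all windows. The windows of H2-D1, H2-K1, Tap1 and Irf7 held no match to these letters, which says nothing about binding outside the window or to other sequences. The windows below run 5′ to 3′ on the strand of the gene, and capitals mark the ISRE core. Ifit1, Ifit3 and B2m are shown for their matches, and Bst2 and Irf7 because their transcripts changed with age.
Irf7 (chr7:141266425-141266674, minus strand): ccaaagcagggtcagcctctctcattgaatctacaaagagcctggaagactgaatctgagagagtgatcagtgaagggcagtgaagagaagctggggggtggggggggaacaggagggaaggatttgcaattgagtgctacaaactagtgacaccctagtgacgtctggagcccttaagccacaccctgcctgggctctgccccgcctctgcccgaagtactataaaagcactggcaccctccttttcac
Bst2 (chr8:71537473-71537722, minus strand): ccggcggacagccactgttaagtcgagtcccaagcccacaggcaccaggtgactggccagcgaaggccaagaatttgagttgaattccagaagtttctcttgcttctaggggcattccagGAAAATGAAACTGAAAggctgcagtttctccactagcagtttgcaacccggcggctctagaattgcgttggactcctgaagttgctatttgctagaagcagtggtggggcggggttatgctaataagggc
Ifit1 (chr19:34640639-34640888, plus strand): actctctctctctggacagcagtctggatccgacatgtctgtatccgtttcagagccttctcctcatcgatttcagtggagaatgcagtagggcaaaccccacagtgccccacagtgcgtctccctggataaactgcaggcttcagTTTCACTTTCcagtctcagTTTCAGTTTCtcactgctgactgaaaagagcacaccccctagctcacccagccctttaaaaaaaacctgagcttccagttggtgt
Ifit3 (chr19:34583279-34583528, plus strand): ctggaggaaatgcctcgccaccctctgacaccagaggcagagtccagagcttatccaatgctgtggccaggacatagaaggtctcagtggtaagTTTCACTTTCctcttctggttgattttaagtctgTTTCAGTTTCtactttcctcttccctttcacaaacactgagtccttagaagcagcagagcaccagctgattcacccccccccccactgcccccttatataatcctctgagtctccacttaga
B2m (chr2:122147437-122147686, plus strand): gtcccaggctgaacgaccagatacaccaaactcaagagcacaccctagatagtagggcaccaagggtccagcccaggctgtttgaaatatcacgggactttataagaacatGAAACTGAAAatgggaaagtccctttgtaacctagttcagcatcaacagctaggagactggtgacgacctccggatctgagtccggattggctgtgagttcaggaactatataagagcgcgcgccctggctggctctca

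**Figure D1:**
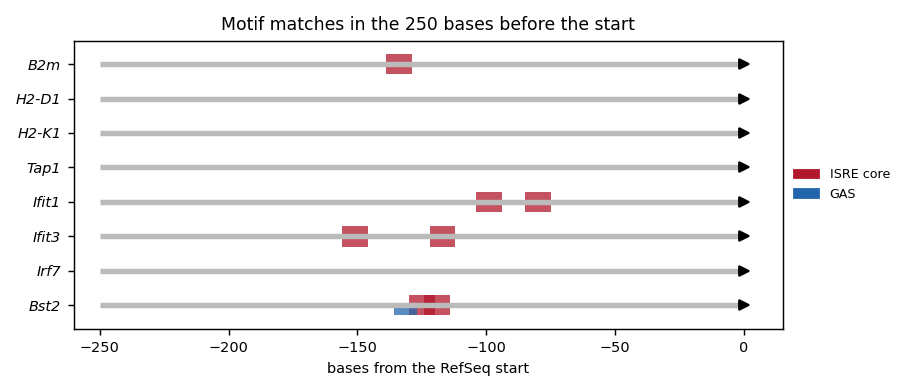
Positions of motif matches (x axis, bases from the RefSeq start) in the 250 bases before the start of 8 genes; red boxes are ISRE cores and blue boxes GAS motifs. B2m, Ifit1, Ifit3 and Bst2 carry 1 or 2 ISRE cores each, between 156 and 85 bases before the start, and Irf7, Tap1, H2-D1 and H2-K1 carry none.

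Levels were compared between genes as normalized counts per kilobase of the principal transcript. B2m, the invariant light chain of every class I molecule, was the highest in all groups, with 1687 ± 25.7 per kilobase in P25-KO, 1771 ± 309 in P25-WT, 1760 ± 35.8 in P60-KO and 1796 ± 6.94 in P60-WT (SD, n = 3 each). The class I heavy chains followed, H2-D1 with group means of 542 to 636 per kilobase and H2-K1 with 348 to 456. No library of one of these 3 genes overlapped those of the next in any group. Ifit3 had group means of 143 to 151 per kilobase and Bst2 had 89.8 to 144, and their libraries overlapped at P25 but not at P60. Tap2, a subunit of the peptide transporter, had 63.2 to 70.8 per kilobase, and its partner subunit Tap1 had 21.8 to 28.2. Irf7 had 24.8 to 50.3 and Ifit1 had 26.1 to 30.8. In P25-KO the Irf7 libraries stood above all Ifit1 and Tap1 libraries, whereas in P60-KO Irf7 came last and its libraries overlapped those of Ifit1.

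Some of these transcripts share sequence with relatives, which can move estimated reads from one gene to another. Of the distinct 31-base words in the transcripts of Ifit3, 61.8% also occur in those of its neighbour copy Ifit3b. The share of such words was 26.7% for H2-D1, with H2-K1 as the closest relative (13.8%), and 22.8% for H2-K1. It was 10.5% for Ifit1, 1.34% for Tap2 and 0.825% for Tap1, and B2m, Irf7 and Bst2 shared no word with another gene. As far as shared words go, the values of Ifit3, H2-D1 and H2-K1 are less certain than those of B2m, Irf7 and Bst2. The error of read assignment was not measured, and the spread between libraries is a separate matter.

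B2m (ENSMUSG00000060802, GRCm38 chr2:122147686-122153083, plus strand) had 1426, 1460 and 1467 normalized counts in the P25-KO libraries and 1344, 1829 and 1396 in the P25-WT libraries. It had 1513, 1483 and 1544 in P60-KO and 1545, 1538 and 1550 in P60-WT. Apart from the second P25-WT library, all values lay within 1344 to 1550. The P60-KO libraries all lay above the P25-KO libraries, by 0.06 ± 0.06 on the log2 scale (SE), with an adjusted p of 0.490 in limma.

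H2-D1 (ENSMUSG00000073411, chr17:35262730-35267499, plus strand) had 1188, 1273 and 1335 normalized counts in P25-KO and 1288, 1433 and 1288 in P25-WT. At P60 it had 1192, 1005 and 1221 in KO and 1141, 1222 and 1150 in WT. The WT libraries of the 2 ages did not overlap, with P60 lower, and the KO libraries overlapped. With both genotypes in one fit, H2-D1 was lower at P60 by a log2 fold change of -0.17 ± 0.06 (SE, limma adjusted p = 0.0301). This call was lost when libraries were scaled to the same total (log2 fold change -0.13, adjusted p = 0.0850), and without any of 5 single libraries, the second or the third P25-KO, the second P60-KO, or the first or the third P60-WT (adjusted p = 0.0503 to 0.0709).

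H2-K1 (ENSMUSG00000061232, chr17:33996017-34000347, minus strand) had 654, 574 and 463 normalized counts in P25-KO and 546, 774 and 548 in P25-WT. It had 595, 641 and 750 in P60-KO and 726, 710 and 778 in P60-WT. Here the P60 values tended to be the higher ones, and the groups overlapped. The age difference over both genotypes was 0.25 ± 0.10 (log2, SE) with an adjusted p of 0.0636, and it passed the threshold under same-total scaling (0.29, adjusted p = 0.0289), without the first P25-KO library (0.30, adjusted p = 0.0331) and without the second P25-WT library (0.32, adjusted p = 0.00953). The sum of H2-D1 and H2-K1, which depends less on how reads were split between them, was 1797 to 2208 at P25 and 1646 to 1972 at P60. Both also share words with other class I genes, such as H2-Q7 (8.14% for H2-D1 and 7.46% for H2-K1). Their sum therefore still depends on read assignment. H2-K1 made up 25.7% to 35.5% of that sum in the P25 libraries and 33.3% to 40.4% in the P60 libraries.

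TAP1 and TAP2 form the transporter that moves peptides into the endoplasmic reticulum. Tap1 (ENSMUSG00000037321, chr17:34187553-34197225, plus strand) had 56.7, 98.8 and 90.4 normalized counts in P25-KO and 78.1, 108 and 64.3 in P25-WT. At P60 it had 76.4, 78.2 and 80.0 in KO and 71.6, 65.5 and 55.7 in WT. All P60-KO libraries were above all P60-WT libraries, with a log2 fold change of 0.29 ± 0.17 (SE, unadjusted p = 0.122 and adjusted p = 0.9995 in limma), and the P25 libraries overlapped. Tap2 (ENSMUSG00000024339, chr17:34203527-34216321, plus strand), which lies near Tap1, had 209, 215 and 243 in P25-KO and 206, 223 and 237 in P25-WT. Its values were 213, 209 and 230 in P60-KO and 253, 237 and 242 in P60-WT. The KO libraries were the lower ones at P60, by a log2 fold change of -0.17 ± 0.10 (SE, unadjusted p = 0.136 and adjusted p = 0.9995 in limma). At P60 the transporter subunits thus stood apart by genotype in opposite directions, and neither difference passed the test.

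Ifit1 and Ifit3 encode antiviral proteins, and IFIT1 binds viral RNA caps. Ifit1 (ENSMUSG00000034459, chr19:34640871-34650009, plus strand) had 60.1, 73.1 and 92.8 normalized counts in P25-KO, 53.1, 104 and 60.1 in P25-WT, 57.7, 80.0 and 70.0 in P60-KO, and 78.8, 85.6 and 80.5 in P60-WT. Ifit3 (ENSMUSG00000074896, chr19:34583531-34588731, plus strand) had 211, 307 and 231 in P25-KO, 220, 337 and 233 in P25-WT, 259, 264 and 224 in P60-KO, and 309, 254 and 208 in P60-WT. For both genes all groups overlapped. The log2 age difference over both genotypes was 0.06 ± 0.17 for Ifit1 and -0.01 ± 0.13 for Ifit3 (SE, limma adjusted p = 0.806 and 0.966), with 95% intervals of -0.30 to 0.42 and -0.28 to 0.27. Ifit3b, the copy that shares most of Ifit3's sequence, had group means of 119 to 151 normalized counts and a log2 age difference of 0.27 ± 0.14 (SE, adjusted p = 0.147).

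**Figure D2:**
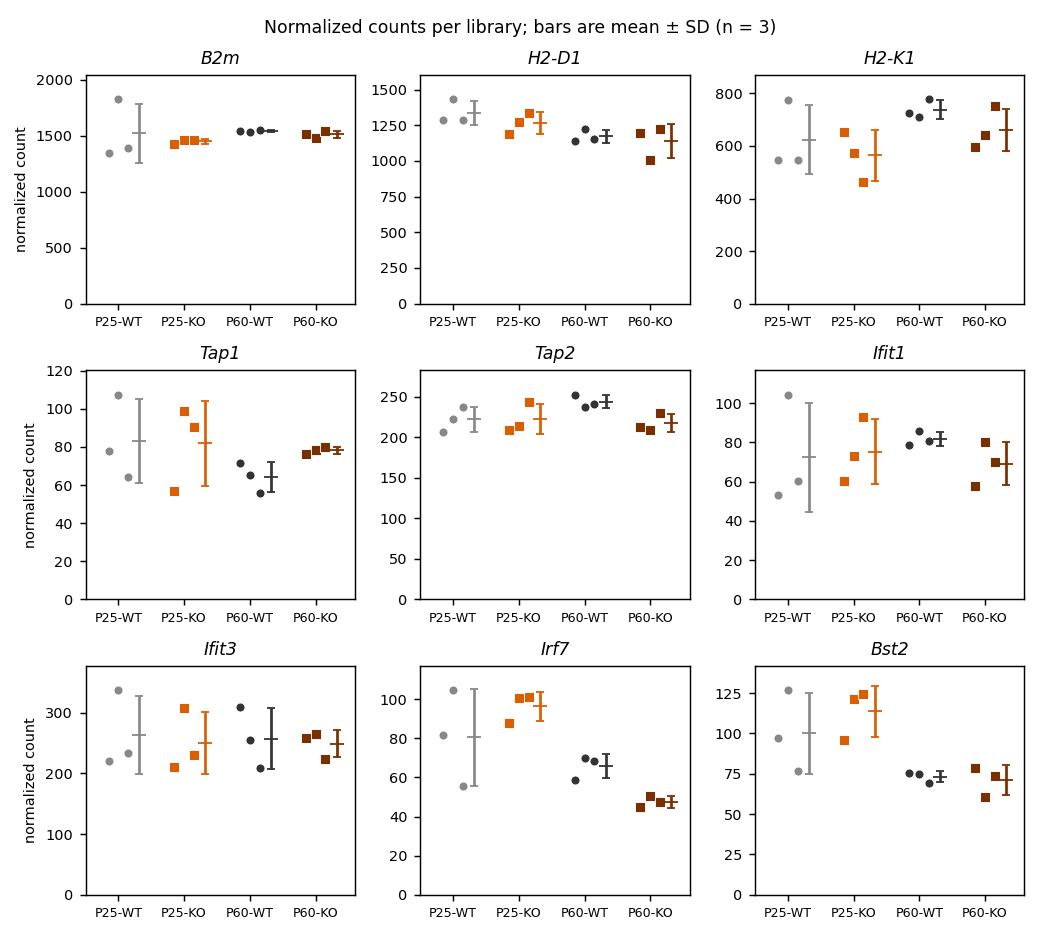
Normalized counts (y axis, starting at 0) of the 9 genes in each of the 12 libraries, by group on the x axis; points are libraries and bars the mean ± SD of 3. Irf7 and Bst2 are lower at P60, Irf7 most of all in P60-KO (44.6 to 50.6), and the second P25-WT library is the highest P25 point in 8 of 9 panels.

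Irf7 (ENSMUSG00000025498, chr7:141262706-141266481, minus strand) encodes the transcription factor that amplifies type I interferon production, and its levels varied most of the 9 genes over the 12 libraries (coefficient of variation 30.4%). It had 87.8, 100.5 and 101 normalized counts in P25-KO and 81.5, 105 and 55.4 in P25-WT. At P60 it had 44.6, 50.6 and 47.3 in KO and 58.6, 70.2 and 68.3 in WT. Every P60-KO library lay below every other library, the P25-KO libraries were high and close together, and the P25-WT libraries spanned the range of both P60-WT and P25-KO. In KO mice Irf7 fell with age to 49.3% of its P25 mean, from 96.4 ± 7.45 to 47.5 ± 3.01 (SD, n = 3 each), a log2 fold change of -1.0 ± 0.17 (SE, limma adjusted p = 0.00344). In WT mice the means were 80.5 ± 24.6 at P25 and 65.7 ± 6.24 at P60 (SD, n = 3 each), and the log2 difference of -0.25 ± 0.24 (SE) had an adjusted p of 0.535. The WT estimate rested on a spread P25 group, moving from -0.49 without the third P25-WT library to -0.04 without the second.

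The KO minus WT difference of Irf7 was 0.30 ± 0.23 on the log2 scale at P25 (SE, 95% interval -0.22 to 0.83; 0.06 without the third P25-WT library and 0.51 without the second) and -0.46 ± 0.18 at P60 (SE, 95% interval -0.86 to -0.05). The P60 libraries of the genotypes did not overlap, and the P60 difference had an unadjusted p of 0.0314 and an adjusted p of 0.9995 in limma, ranking 233 of 17610 genes. The test of the difference between the ages, the genotype by age interaction, gave -0.76 ± 0.29 (SE) with an unadjusted p of 0.0218 and an adjusted p of 1.0 in limma. The age change of Irf7 was thus not shown to differ between KO and WT after adjustment over all genes.

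Bst2 (ENSMUSG00000046718, chr8:71534255-71537456, minus strand) encodes tetherin, a membrane protein that holds budding virus particles on the cell. It had 95.7, 121 and 124 normalized counts in P25-KO and 96.8, 127 and 76.8 in P25-WT. At P60 it had 78.7, 60.8 and 73.9 in KO and 75.3, 74.7 and 69.2 in WT. P60 libraries lay below P25 libraries within each genotype, and the third P25-WT library reached down to the P60 range. In KO mice Bst2 fell to 62.5% of its P25 mean, a log2 fold change of -0.67 ± 0.17 (SE, limma adjusted p = 0.0236), and this call was lost without the second (adjusted p = 0.0696) or the third (0.0856) P25-KO library or the second P60-KO library (0.0611). In WT mice it was 72.9% of the P25 mean, with a log2 difference of -0.42 ± 0.21 (SE) and an adjusted p of 0.212. Without 1 library the WT difference was -0.60 to -0.24. The interaction was -0.25 ± 0.27 (SE, unadjusted p = 0.376 in limma), and -0.43 to -0.07 without 1 library. The KO and WT libraries overlapped at both ages.

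Across the 9 genes, no KO versus WT difference passed an adjusted p of 0.05 in limma at P25, at P60 or with both ages in one fit. Over all genes the share that passed was 0.00571% at P25, 0.00568% at P60 and 0.00568% in the fit over both ages, which in each case was Shank3 alone. At an unadjusted p under 0.05, 0 of 9 passed at P25 (1.36% of all genes), 1 of 9 at P60, Irf7 (2.50% of all genes), and 0 of 9 over both ages (2.05%). Complete separation of KO from WT libraries was found for 0 of 9 genes at P25, against 4.76% of all genes, and for 3 of 9 at P60, Tap1, Tap2 and Irf7, against 7.79%. The 95% intervals left room for moderate differences. At P60 they ran from -0.15 to 0.09 on the log2 scale for B2m and from -0.64 to 0.15 for Ifit1, and at P25 from -0.53 to 0.73 for Ifit1. In the interaction of genotype and age 0 of 9 genes passed after adjustment, as did 0% of all genes, and 1 of 9, Irf7, had an unadjusted p under 0.05, against 1.64% of all genes.

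Age moved more genes than genotype. With both genotypes in one fit, 3 of the 9 genes were called lower at P60, H2-D1, Irf7 and Bst2, and 0 were called higher, while 37.6% of all genes were called, 19.3% as lower and 18.3% as higher. Irf7 had a log2 fold change of -0.63 ± 0.17 (SE, limma adjusted p = 0.0107) and Bst2 of -0.54 ± 0.13 (SE, limma adjusted p = 0.00551), and both passed under all 20 alternatives. In KO mice alone 2 of 9 genes passed, Irf7 and Bst2, both lower, against 20.7% of all genes in either direction and 11.3% as lower. In WT mice alone 0 of 9 passed, against 8.65% of all genes, and 0 of 9 had an unadjusted p under 0.05 in limma, against 28.9% of all genes. The P25 and P60 libraries did not overlap for 3 of 9 genes in KO mice (B2m, Irf7 and Bst2) and for 2 of 9 in WT mice (H2-D1 and Bst2), compared with 39.4% and 36.0% of all genes. Counted in either direction, the share of the 9 genes was close to or under that of all genes in each of these comparisons, and every call among the 9 was a lower one. The KO and WT age comparisons use separate libraries, but each shares its libraries with the genotype comparisons.

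**Figure D3:**
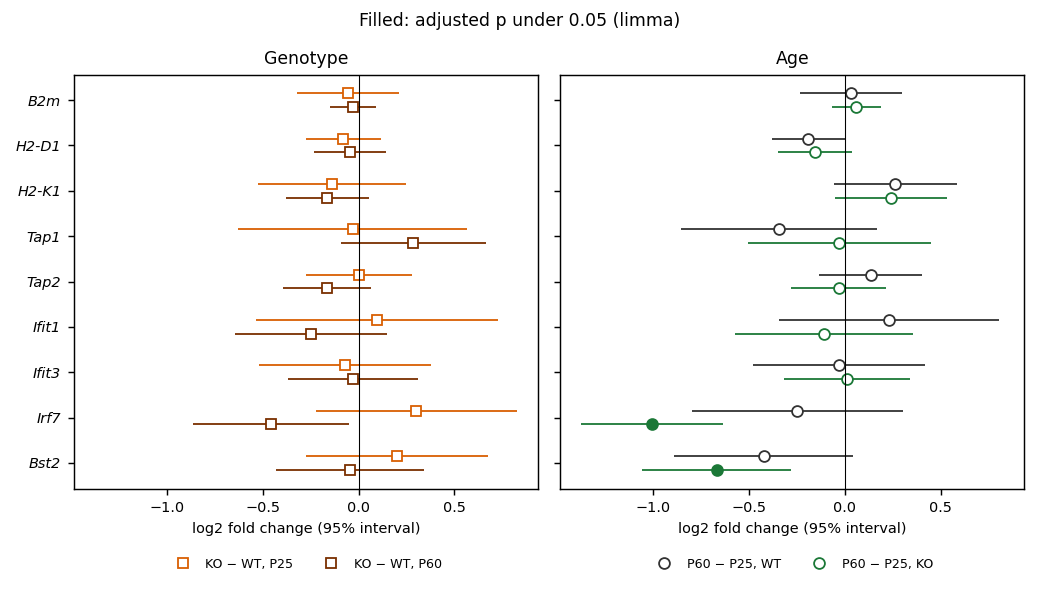
Log2 fold changes with 95% intervals (x axis) of the 9 genes for KO minus WT at each age (left) and P60 minus P25 in each genotype (right), on log2(value + 1); filled symbols have an adjusted p under 0.05. Irf7 (-1.0) and Bst2 (-0.67) in KO mice are the filled points, and all genotype symbols are open.

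The wider pathway was described from 92 listed genes of antigen presentation and interferon biology, of which 84 were in the table and 81 were tested over both genotypes. Of these, 13 were called higher and 13 lower at P60 (32.1% of those tested, against 37.6% of all genes), and with libraries scaled to the same total 15 were higher and 9 lower. No listed gene was called between KO and WT at either age, and 0 of 83 at P25 and 2 of 81 at P60 had an unadjusted p under 0.05 in limma, beside 1.36% and 2.50% of all genes. In KO mice alone 5 were called higher and 6 lower with age (13.3% of 83, against 20.7% of all genes), and in WT mice alone 2 higher and 2 lower (4.94% of 81, against 8.65% of all genes).

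Among the antigen-processing genes, 2 of 6 peptide-loading genes and 2 of 5 immunoproteasome genes were called, all as lower, which are shares near the 37.6% of all genes called. Canx, the chaperone calnexin, had a log2 fold change of -0.38 ± 0.05 (SE, limma adjusted p = 3.54e-05). Tapbp, the loading chaperone tapasin, had -0.24 ± 0.06 (SE, adjusted p = 0.00561), and Psme1, a proteasome activator subunit, had -0.33 ± 0.08 (SE, adjusted p = 0.00666). Among other class I genes, Fcgrt, the neonatal Fc receptor heavy chain, fell by 0.51 on the log2 scale (adjusted p = 9.96e-05), while 2 of 11 were called higher. Of the 4 class I regulators 2 were higher, among them Rfxank, a subunit of the RFX promoter complex, with 0.25 ± 0.08 (SE, adjusted p = 0.0204), a call lost without the first or the third P60-KO library (adjusted p = 0.0516 and 0.0535).

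Signalling, sensing and receptor genes were each called at a share under the 37.6% of all genes, and 3 of 5 feedback genes were called. Of 9 signalling genes 3 were higher at P60 and 0 lower, Jak2 with a log2 fold change of 0.38 ± 0.08 (SE, limma adjusted p = 0.00155) and Stat2 with 0.28 ± 0.06 (SE, adjusted p = 0.00220) among them. The sensing kinase gene Tbk1 was the only 1 of 11 nucleic acid sensing genes called, at 0.22 ± 0.05 (SE, adjusted p = 0.00393). Of the 5 feedback genes 2 were higher, Pias1, an inhibitor of STAT signalling, at 0.26 ± 0.06 (SE, adjusted p = 0.00294), and Socs3, an inhibitor of JAK kinases, at 0.44 ± 0.14 (SE, adjusted p = 0.0258), a call lost without the first P25-WT or the first or the second P60-WT library (adjusted p = 0.0589 to 0.0656). The third called, Usp18, which dampens interferon receptor signalling and is itself induced, was lower. Of 4 interferon receptor genes 1 was called, as lower, and none of the 5 interferon genes listed was in the table. With libraries scaled to the same total 5 of the 9 signalling genes were called higher and 0 receptor genes were called in limma, where 38.5% of all genes were called and 22.9% as higher, so that the signalling share lay above that of all genes under this scaling.

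Among 27 tested other interferon-induced genes, 7 were lower and 3 higher, a share close to the 37.6% of all genes called (19.3% lower and 18.3% higher), and the list median was a log2 difference of -0.18, beside 0.00 for all genes. Lgals3bp, a secreted glycoprotein, had a log2 fold change of -0.50 ± 0.10 (SE, limma adjusted p = 0.00113) and Rtp4, a receptor transport protein, had -0.76 ± 0.19 (SE, adjusted p = 0.00692). Gbp7, an interferon-induced GTPase, rose by 0.41 ± 0.09 (SE, adjusted p = 0.00344), and Xaf1, a proapoptotic factor, by 0.52 ± 0.16 (SE, adjusted p = 0.0209). The Xaf1 call was lost without the third P25-KO, the first P25-WT or the first P60-KO library (adjusted p = 0.0502 to 0.0543). Usp18 counts in this list as well as in the feedback list. The other called genes, named after their values were seen, were Usp18 (-0.83), Ifi44 (-0.73), Mx2 (-0.62), Gbp3 (-0.40) and Ifi27 (-0.19) among the lower, and Ifit1bl1 (0.35) among the higher. Several of these calls were not stable. Gbp3 was called in 8 of 20 alternatives (adjusted p up to 0.108), Ifi44 and Mx2 in 11 of 19 each (up to 0.0973 and 0.0828), Ifit1bl1 in 16 of 20 (up to 0.0628), Usp18 in 17 of 19 (up to 0.0547) and Ifi27 in 19 of 20 (up to 0.0524). With libraries scaled to the same total the list had 4 lower and 3 higher. Irf7 and Bst2 were thus lower beside induced genes that were called in both directions or, as Ifit1 and Ifit3, not called.

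**Figure D4:**
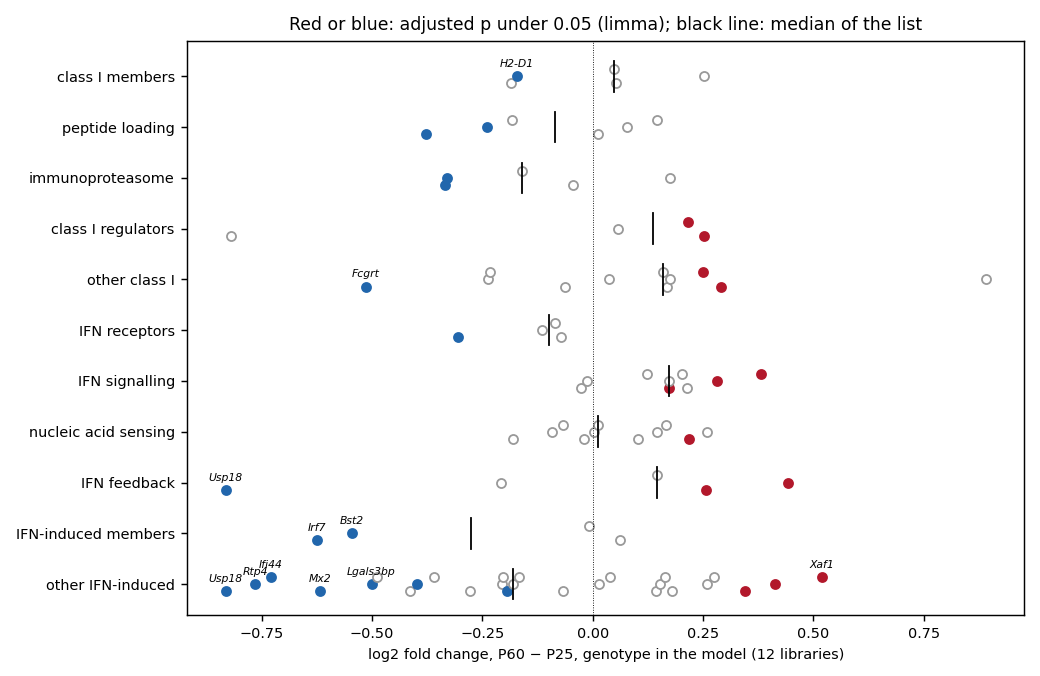
Log2 fold changes between P60 and P25 (x axis, genotype in the model, 12 libraries) of the tested genes in each list (rows); blue and red points were called lower and higher, open points were not called, and black lines are list medians. Other interferon-induced genes have 7 blue and 3 red points, and the signalling list has 3 red points and no blue point.

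Marker genes of other cells were counted in the same age fit, in which 37.6% of all genes were called, and in bulk RNA fewer cells of a type and less RNA per cell cannot be told apart. The 5 red blood cell genes were all called lower at P60, and their summed level was 20503 to 42983 normalized counts in the P25 libraries and 5894 to 7305 in the P60 libraries. Of 10 microglial genes 4 were called lower (0 higher), with sums of 8771 to 11240 at P25 and 8195 to 10332 at P60, which overlap. Of 10 endothelial genes 1 was called, as higher, with sums of 5551 to 7340 at P25 and 5278 to 9004 at P60. None of the 7 macrophage and class II genes was called in limma, 1 having an unadjusted p under 0.05 (46.8% of all genes), and their sums were 331 to 509 at P25 and 370 to 570 at P60. All 8 oligodendrocyte genes and 6 of 8 astrocyte genes were called lower, and 3 of 8 mural and meningeal genes. Of the 7 T and natural killer cell markers 2 were in the table, 1 of which was called lower. No marker in the table was at 0 in any library, and of 9 neuronal genes 4 were called higher and 2 lower, with a sum of 248084 to 258392 over all libraries. The part of these shifts in the age differences of Irf7, Bst2 and H2-D1 was not tested. Between P60-KO and P60-WT, where Irf7 did not overlap, the microglial sums were 8497 to 9192 and 8195 to 10332. In KO mice at P60 the log2 estimates were negative for 7 of 10 microglial genes, 10 of 10 endothelial genes, 8 of 8 mural and meningeal genes and 6 of 7 macrophage and class II genes, and positive for 5 of 5 red blood cell genes, 8 of 8 oligodendrocyte genes and 6 of 8 astrocyte genes. Their part in the Irf7 difference was not tested either.

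**Figure D5:**
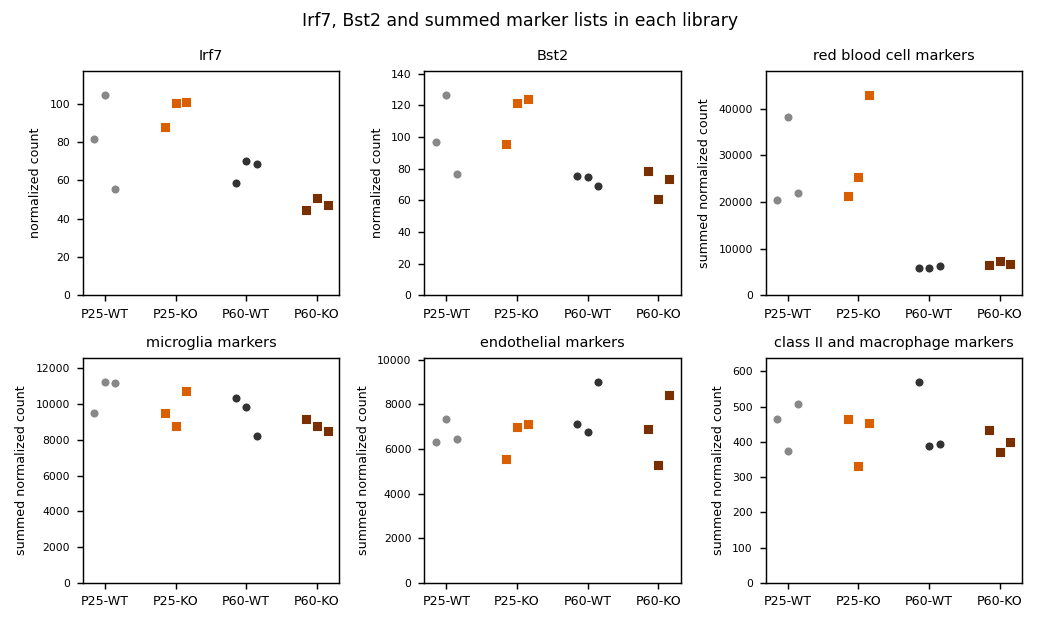
Normalized counts of Irf7 and Bst2 and the summed normalized counts of 4 marker lists (y axes, starting at 0) in each library, by group on the x axis. Red blood cell sums are 20503 to 42983 at P25 and 5894 to 7305 at P60, while microglial, endothelial and class II sums overlap between the ages.

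The second P25-WT library was the highest of the 6 P25 libraries for 8 of the 9 genes, all but Tap2, and for 30.9% of all 17594 genes. It also had the highest sums of oligodendrocyte (511245), mural and meningeal (9453) and microglial (11240) genes and the second highest red blood cell sum, 38240. Among the P25 libraries it had the highest endothelial (7340), T and natural killer cell (701) and choroid plexus and ependymal (14537) sums. Its astrocyte (148083), neuronal (253280) and macrophage and class II (375) sums were not the highest. The part of these sums in the values of this library was not tested. Without it, 5 of the 9 genes were called with age over both genotypes, B2m (0.11, adjusted p = 0.0344) and H2-K1 as higher in addition to the 3 lower genes, and H2-K1 was called in WT mice alone (0.43, adjusted p = 0.0133).

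The genes outside the 9 with the most similar profile were sought over the 12 libraries. For the mean profile of the 5 class I genes they were Tapbpl, Tcp1, Tmed7, Serpinb6a and Taf6 (Pearson r = 0.919 to 0.888), and with group means subtracted Abhd14a, Ubl4a, 4930507D05Rik, Mrpl2 and Tapbpl (0.975 to 0.939). Tapbpl, a tapasin-related loading factor, was on both lists. For the 4 interferon-induced genes they were Glod4, Mettl24, Hebp1, Slc25a18 and Aarsd1 (0.944 to 0.905), and with group means subtracted Ssr2, Smpd1, Tmem141, Glod4 and Nim1k (0.969 to 0.961). All 4 profiles of the 9 genes, as they were and with group means subtracted, had their highest point in the second P25-WT library, and none of the 5 nearest genes of the interferon profile was on the interferon lists.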

How the data were processed

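Transcripts were quantified by the authors with Salmon (1.1.0) with GC bias correction, imported with tximport and normalized with DESeq2 (1.26.0 in R 3.6.2 per the labels, where the study's methods name other versions). The deposited values are signal on a count scale, normalized counts that the authors had divided by library- and gene-specific factors over all 12 libraries. Whole reads could not be recovered, so no count model was run and depth is unknown. The labels name GRCm38; use of strand is not given in the sources used here.

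Groups and replicate numbers came from the sample titles. Symbols and positions were from GENCODE M21 (GRCm38; 19252 of 19268 identifiers). limma 3.58.1 (R 4.3.3, lmFit and eBayes with trend) was run on log2(value + 1) for genes with a mean of at least 10, with Benjamini-Hochberg adjustment over all genes and a threshold of 0.05. The log2(value + 1) scale understates changes of low genes. Fits used the 6 libraries compared, or all 12 with genotype and age. P-values measure the spread between 3 mice per group. Self-tests used simulated data.

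The 9 genes, lists and tests were chosen with earlier results of these data known. Named genes were Shank3, the 9 genes, up to 5 list genes per direction and comparison with the smallest adjusted p, near-identical copies, and the 5 genes nearest in profile. Usp18, Ifi44, Mx2, Gbp3, Ifi27 and Ifit1bl1 were named after their values were seen. Alternatives changed the pseudocount, filter, scaling, variance model and samples, or added the replicate number as a block. Same-numbered libraries were not treated as pairs in the main fits (deviation correlations -0.07 to 0.17).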

Additional observations from a re-analysis of the deposited data

Results flagged for a closer look

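Irf7 was marked for its genotype by age interaction, which had an unadjusted p under 0.05 but did not pass the adjustment over all genes. The log2 difference at P60 minus that at P25 was -0.76 ± 0.29 (SE), with an unadjusted p of 0.0218 and an adjusted p of 1.0 in limma, and it ranked 98 of 17594 genes. The mean difference was positive at P25 (0.30, or 0.06 to 0.51 without 1 library) and negative at P60 (-0.46). All P60-KO libraries lay below all P60-WT libraries. Leaving out 1 library gave -0.97 to -0.51, the smallest size without the third P25-WT library and the largest without the second.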

How the results depend on the processing

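The 3 libraries per group and the unknown depth limit these results, and single genes are read on values already normalized by the authors. Irf7 and Bst2 kept their lower calls over both genotypes under all 20 alternatives (log2 fold changes of Irf7 -0.77 to -0.56 and of Bst2 -0.64 to -0.48 without 1 library). Irf7 in KO mice kept its lower call under each of the fewer alternatives run for that comparison (-1.07 to -0.96 without 1 library). The causes of the changes below were not tested. With libraries scaled to the same total, directions turned for Tap2 at P25 (0.0133), Ifit3 with age in WT mice (0.0227) and over both genotypes (0.0342), and Tap1 (0.0062) and Tap2 (0.0038) with age in KO mice, and with a pseudocount of 10 for Tap2 at P25 (2.12e-05), all uncalled. That scaling split the age calls over both genotypes into 4037 higher and 2730 lower in place of 3219 and 3397, in WT mice into 991 and 681 in place of 644 and 877, and in KO mice into 2108 and 1620 in place of 1649 and 1992. Without the intensity trend, limma called 0 genes at P25, 0 at P60, 192 with age in WT mice and 1725 in KO mice, in place of 1, 1, 1521 and 3641. A fit on all 12 libraries called 3442 with age in WT mice.

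Over all genes, deviations of same-numbered libraries correlated little (-0.07 to 0.17). The second P60 libraries of both genotypes were nevertheless low together in the summed peptide-loading genes, 19572 in KO and 19092 in WT. The other P60 libraries had 24673 to 26418, and the cause was not tested. In the main fits the replicate numbers did not enter. With them as a replicate block the calls were 0 at P25, 1 at P60, 1791 and 2482 with age in WT and KO mice, 1 and 6731 for genotype and age over all libraries and 0 for the interaction, and the same number of the 9 genes was called in each comparison. Irf7 at P60 then had an adjusted p of 0.819.

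Leaving out 1 library gave 0 to 8 calls at P25, 1 to 3 at P60, 122 to 2403 with age in WT mice, 2093 to 3230 in KO mice, 5588 to 6743 over both genotypes and 0 to 1 for the interaction. The number of the 9 genes called was then 0 to 1 in WT mice, 1 to 2 in KO mice and 2 to 5 over both genotypes, and that of pathway genes 19 to 27 (against 26, an alternative chosen after seeing the data). Directions of uncalled genes turned in these ranges of log2 fold change. At P25 they were B2m -0.139 to 0.0828, H2-K1 -0.253 to 0.0284, Ifit1 -0.0942 to 0.387, Ifit3 -0.23 to 0.12, Tap1 -0.20 to 0.21 and Tap2 -0.0664 to 0.0485. At P60 they were Bst2 -0.121 to 0.062, H2-D1 -0.0968 to 0.044 and Ifit3 -0.17 to 0.11. For genotype over both ages they were B2m -0.0783 to 0.0205, Bst2 -0.0128 to 0.146, Ifit1 -0.179 to 0.0349 and Ifit3 -0.118 to 0.0366. With age they were Ifit1 -0.26 to 0.0497, Ifit3 -0.10 to 0.17, Tap1 -0.27 to 0.13 and Tap2 -0.0728 to 0.0358 in KO mice, B2m -0.0493 to 0.173 and Ifit3 -0.17 to 0.16 in WT mice, and Ifit1 -0.0426 to 0.171 and Ifit3 -0.0688 to 0.0782 over both. For the interaction they were B2m -0.11 to 0.11, H2-D1 -0.0183 to 0.123, H2-K1 -0.191 to 0.0908 and Ifit3 -0.15 to 0.20.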
